A study of Homo sapiens with 12 samples.

Results

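The MYC and MAX network is described here through 9 genes, MYC, MAX, MXD1, MXD3, MXD4, MXI1, MNT, MGA and MLX, which were listed by symbol and matched to the Ensembl identifiers of an RNA-Seq count table. All 9 were among the 19901 genes of the table and among the 13093 genes tested. The cells were HCT116, a human colorectal carcinoma line, of the genotype KAP1_dTAG_CloneD5, a line grown from a single sorted cell in which both alleles of TRIM28, the gene for KAP1, carry a degradation tag at the C-terminus. Every group therefore carried the tag, and untagged HCT116 cells were not among the groups. Cells of all 4 groups were kept without serum for 48 h and received DMSO or dTAG, the ligand that sends the tagged protein to the proteasome, for the last 8 h. DMSO-S0 and dTAG-S0 were collected without serum, and DMSO-S30 and dTAG-S30 after 30 min of serum, with 3 biological replicates in each group.

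MYC is a basic helix-loop-helix leucine zipper protein that binds DNA as a dimer with MAX, mostly at the E-box CACGTG, and activates genes of growth, ribosome production and metabolism. MXD1, MXI1, MXD3, MXD4 and MNT also pair with MAX, occupy the same sites and recruit SIN3 and histone deacetylases, so that they repress where MYC activates, while MGA joins MAX in a variant Polycomb complex. MLX is the MAX-like partner of MondoA and ChREBP, which respond to glucose, and it can also pair with MXD1, MXD4 and MNT. MYC is a classical early gene of the serum response and is driven by the Wnt pathway in colorectal cancer cells.

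Because the proteins of the network bind CACGTG, the members' own promoters were searched for it, together with TGACGTCA (the CREB element), TGANTCA (the AP-1 element) and the CArG box of SRF. The 4 motifs were searched on both strands in the 250 bases before each start in RefSeq (GRCh38.p14), which gave 13 starts for 8 members and no entry for MYC. CACGTG was present before 3 of the 13 starts, against 6.32% of the 34943 starts in RefSeq. These belonged to MNT, MXD4 and MLX, whose boxes began 193, 238 and 50 bases before the start. TGANTCA was found once, 79 bases before a start of MXD3 (6.59% of all starts hold it), and neither TGACGTCA (1.63%) nor the CArG box (1.16%) was found at any of the 13. The stretches with the E-box are shown because their response to serum can be set side by side below. They are given on the gene's strand with CACGTG in capitals, and all lie outside the gene's span in the count table. The MNT stretch is chr17:2401236-2401293 (minus strand), the MXD4 stretch chr4:2262330-2262359 (minus strand) and the MLX stretch chr17:42567010-42567067 (plus strand).
MNT: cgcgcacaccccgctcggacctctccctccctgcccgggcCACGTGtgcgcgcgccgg
MXD4: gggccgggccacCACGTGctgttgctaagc
MLX: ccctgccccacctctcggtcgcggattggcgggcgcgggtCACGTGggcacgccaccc

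The 12 libraries held 20537682 to 26278707 reads, of which the ERCC spike-ins took 7.97% to 9.37%. Reads were counted over whole genes, introns included, so each value mixes spliced and unspliced RNA. Levels are normalised CPM, read counts relative to the library size after upper-quartile scaling, and a gene is called when its adjusted p is under 0.05 in edgeR's quasi-likelihood test with Benjamini-Hochberg adjustment over the 13093 genes. In these bulk samples, fewer cells of a type and less RNA per cell cannot be told apart. All 5 epithelial markers were present, with a summed level of 1141 to 1193 CPM in DMSO-S0, 1309 to 1404 in DMSO-S30, 1166 to 1310 in dTAG-S0 and 1367 to 1563 in dTAG-S30. Of 8 markers of other cell types, 6 were not tested (CD3E, PECAM1, DCN, ALB, GFAP and COL1A2, at 0 to 10 reads per library), and the 2 tested were PTPRC at 8 to 35 reads and COL1A1 at 250 to 1789. The summed level of those 8 was 14.7 to 17.2 CPM in DMSO-S0, 80.5 to 86.6 in DMSO-S30, 12.8 to 16.1 in dTAG-S0 and 67.2 to 78.8 in dTAG-S30, so it was higher with serum. COL1A1 carried that rise (log2 2.48 in DMSO-treated cells, adjusted p = 3.08e-18), while PTPRC was not called and the fibroblast genes COL1A2 and DCN stayed at 0 to 2 reads per library, and the part of COL1A1 in the results below was not tested. The transcript of TRIM28 was 91.5 to 100.2 CPM in DMSO-S0 and 85.5 to 97.2 in dTAG-S0 and was not called with dTAG (log2 fold change -0.06, adjusted p = 0.787), and it checks nothing about the depletion, since dTAG acts on the protein.

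Levels between members can be compared only per length, here as CPM per kb of the gene's span. In DMSO-S0 the order was MYC at 35.7 ± 0.334 CPM per kb (SD, n = 3), MLX at 5.30 ± 0.355, MXD4 at 3.31 ± 0.132, MNT at 1.29 ± 0.0633, MXI1 at 1.27 ± 0.0474, MGA at 1.13 ± 0.0322, MXD3 at 1.05 ± 0.174, MAX at 0.608 ± 0.0373 and MXD1 at 0.456 ± 0.00816. The libraries of MNT and MXI1 overlapped, as did those of MGA and MXD3, and the other neighbours in this order did not. Per length of span MYC thus stood above each partner, and MAX, the obligate partner of MYC, was next to last in this order. These values, and the order with them, depend on how much of the span is intron. Exons of GENCODE v44 cover 76.5% of the span of MYC, 68.9% of MLX, 51.0% of MNT, 46.2% of MXD4 and 42.0% of MXD3. They cover only 14.0% of MXD1, 13.2% of MGA, 7.41% of MXI1 and 6.48% of MAX, whose spans are thus mostly intron. An order per kb of exon was not made and can differ from this one. With serum MNT moved clear of MXI1, at 2.61 ± 0.179 CPM per kb in DMSO-S30 against 1.27 ± 0.0156, and MXD1 (0.658 ± 0.0637) stood above MAX (0.517 ± 0.0423), the reverse of their order without serum. In dTAG-S30 the libraries of MXD1 (0.618 ± 0.0661) and MAX (0.550 ± 0.0637) overlapped.

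**Figure D1:**
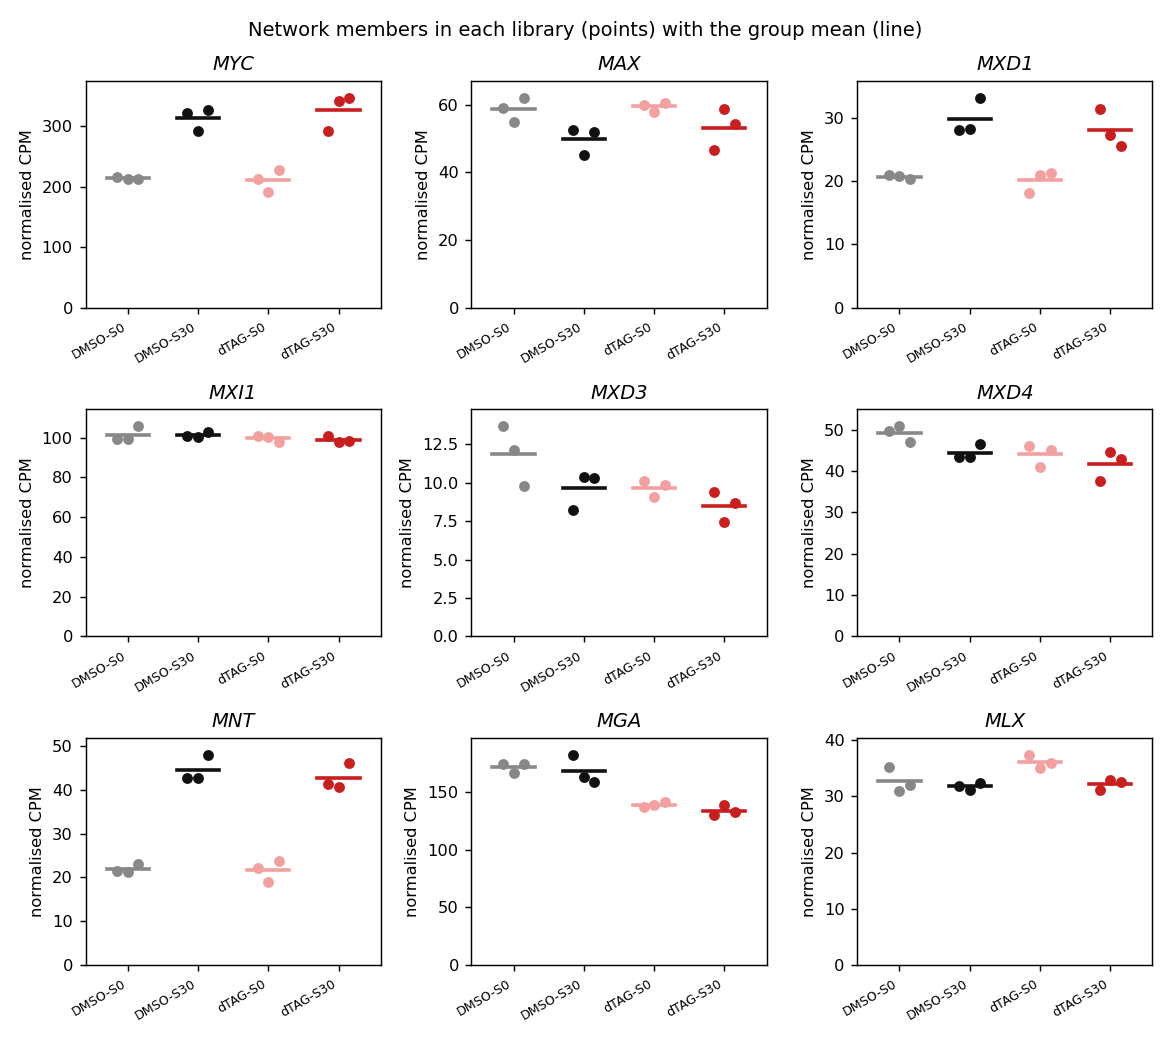
Normalised CPM (vertical axis, from 0) of each network member in the 4 groups; each point is a library and each line the mean of 3. MYC, MXD1 and MNT are higher in both serum groups, and MGA is lower in both dTAG groups (139 and 134 CPM against 172 and 168).

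The first comparison asks what 30 min of serum did to the network while KAP1 was present. Serum raised MNT, MYC and MXD1 and lowered MAX, and the other 5 members were not called. Thus 3 of 9 members were called higher and 1 lower, where 26.3% of all tested genes were called, 9.18% higher and 17.1% lower. The libraries of the groups did not overlap for 5 of 9 members, against 44.4% of tested genes. The members' median log2 fold change was -0.01, beside -0.07 for all tested genes. The split of calls depended on the scaling: 35.0% of called genes were higher here, against 59.8% with TMM scaling, 66.5% with library sizes from the spike-ins and 58.0% with DESeq2.

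MNT, the MAX partner that is present in growing and resting cells alike and limits the activity of MYC, had the largest change of the 9. Its level was 21.5, 21.1 and 23.2 CPM in the 3 DMSO-S0 libraries and 42.8, 42.7 and 48.0 CPM in DMSO-S30. The lowest serum library was well above the highest one without serum. MNT rose 2.04-fold (95% interval 1.80 to 2.31, log2 fold change 1.03 ± 0.0881 SE, adjusted p = 5.57e-10), and 97.8% of tested genes had a lower fold change. The gene lies at chr17:2384060-2401118 on the minus strand, and no other gene of the table overlaps it.

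MYC (chr8:127735434-127741434, plus strand, no overlapping gene) was at 216, 212 and 214 CPM in DMSO-S0 and at 322, 293 and 326 CPM in DMSO-S30. All 3 serum libraries were above all 3 without serum, whose spread was small. The rise was 1.48-fold (1.34 to 1.64, log2 0.57 ± 0.0720, adjusted p = 8.71e-07). FOS, the serum reference gene, went from 5.48 ± 0.821 to 485 ± 43.9 CPM (log2 6.48, adjusted p = 1.07e-26), and EGR1 from 54.9 ± 3.93 to 633 ± 44.4 CPM (log2 3.55, adjusted p = 3.34e-22). Both were low to moderate before serum and high after it, while MYC was already at 212 to 216 CPM without serum.

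MXD1 (chr2:69897688-69942945, plus strand), the MAD protein linked to differentiation and cell cycle exit, was at 21.0, 20.7 and 20.3 CPM in DMSO-S0 and at 28.1, 28.2 and 33.1 CPM in DMSO-S30. Again the groups were apart, and 1 serum library stood above the other 2. Its rise of 1.44-fold (1.26 to 1.65, log2 0.53 ± 0.0949, adjusted p = 0.00014) was close in size to that of MYC. SNRNP27 covers 17.4% of the span of MXD1 on the same strand.

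MAX (chr14:65006174-65102695, minus strand) is the shared partner of the MYC, MXD, MNT and MGA proteins. Its level was 59.1, 54.9 and 62.0 CPM in DMSO-S0 and 52.6, 45.2 and 52.0 CPM in DMSO-S30. The groups did not overlap, but the highest serum library and the lowest one without serum were close. The fall was small (0.855-fold, 0.761 to 0.959, log2 -0.23 ± 0.0809, adjusted p = 0.0395). This call was lost with TMM scaling, spike-in library sizes or DESeq2 (log2 -0.16, -0.17 and -0.17, adjusted p = 0.134, 0.249 and 0.130, in a range of 0.00992 to 0.249 over 9 alternatives). It was also lost in 5 of 12 fits that left out 1 library: DMSO-S0 replicate 1 (log2 -0.20) or 3 (-0.16), DMSO-S30 replicate 2 (-0.14) or 3 (-0.26), or dTAG-S0 replicate 1 (-0.22). On the opposite strand FNTB covers 58.5% of its span.

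The remaining members were not called with serum. MXI1 (chr10:110207605-110287365, plus strand) was the MXD gene with the most reads, though not per kb of span. It was at 99.3, 99.2 and 106 CPM in DMSO-S0 and at 101, 100.4 and 103 CPM in DMSO-S30 (log2 -0.01, 95% interval -0.13 to 0.10). MXD4 (chr4:2247432-2262294, minus strand) had 49.7, 50.8 and 47.0 CPM without and 43.3, 43.3 and 46.5 CPM with serum, groups that did not overlap, with log2 -0.13 and adjusted p = 0.197. MXD3 (chr5:177301461-177312757, minus strand), the MXD gene linked to proliferating cells, had the fewest reads of the members, 167 to 264 per library, and its log2 fold change of -0.23 had the widest interval, -0.49 to 0.03. MGA (chr15:41621224-41773081, plus strand) and MLX (chr17:42567068-42573239, plus strand) had log2 fold changes of -0.04 (-0.16 to 0.09) and -0.01 (-0.16 to 0.13), and the direction of these small values and of that of MXI1 turned positive with TMM scaling, spike-in library sizes or DESeq2. On the opposite strand PRELID1 covers 28.2% of MXD3 and PSMC3IP covers 925 bases of MLX. Of the 3 members with an E-box before the start, MNT rose, while MXD4 and MLX were not called.

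In dTAG-treated cells the same question was asked with KAP1 depleted, and MNT, MYC and MXD1 were again higher. Here 3 of 9 members were called higher and 0 lower, where 24.5% of tested genes were called, 9.09% higher and 15.4% lower. With TMM scaling, spike-in library sizes and DESeq2, 61.6%, 62.5% and 59.0% of called genes were higher, against 37.2% here. The groups did not overlap for 4 of 9 members, against 37.5% of tested genes, and the members' median log2 fold change was -0.05 beside -0.06 for all tested genes. The serum comparisons share no library, but the dTAG comparisons below use the same 4 groups.

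MNT was at 22.1, 18.9 and 23.7 CPM in dTAG-S0 and at 41.4, 40.7 and 46.3 CPM in dTAG-S30, a 1.98-fold rise (1.75 to 2.23, log2 0.98 ± 0.0854, adjusted p = 8.12e-10). MYC was at 213, 191 and 227 CPM without and at 292, 341 and 347 CPM with serum, a 1.54-fold rise (1.40 to 1.71, log2 0.63 ± 0.0700, adjusted p = 9.78e-08). MXD1 was at 18.1, 20.9 and 21.3 CPM without and at 31.3, 27.2 and 25.5 CPM with serum, a 1.39-fold rise (1.22 to 1.58, log2 0.47 ± 0.0916, adjusted p = 0.000363). For all 3 genes each serum library was above each library without serum. MAX was at 60.0, 57.8 and 60.6 CPM in dTAG-S0 and at 46.5, 58.7 and 54.2 CPM in dTAG-S30, groups that overlapped, and it was not called (log2 -0.17, adjusted p = 0.124), although it was without dTAG-S30 replicate 2 (log2 -0.24, adjusted p = 0.0384). MLX was at 37.4, 35.1 and 35.9 CPM in dTAG-S0 and at 31.1, 33.0 and 32.6 CPM in dTAG-S30. These groups did not overlap, and the difference fell just outside the threshold (log2 -0.18 ± 0.0688, adjusted p = 0.0553).

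**Figure D2:**
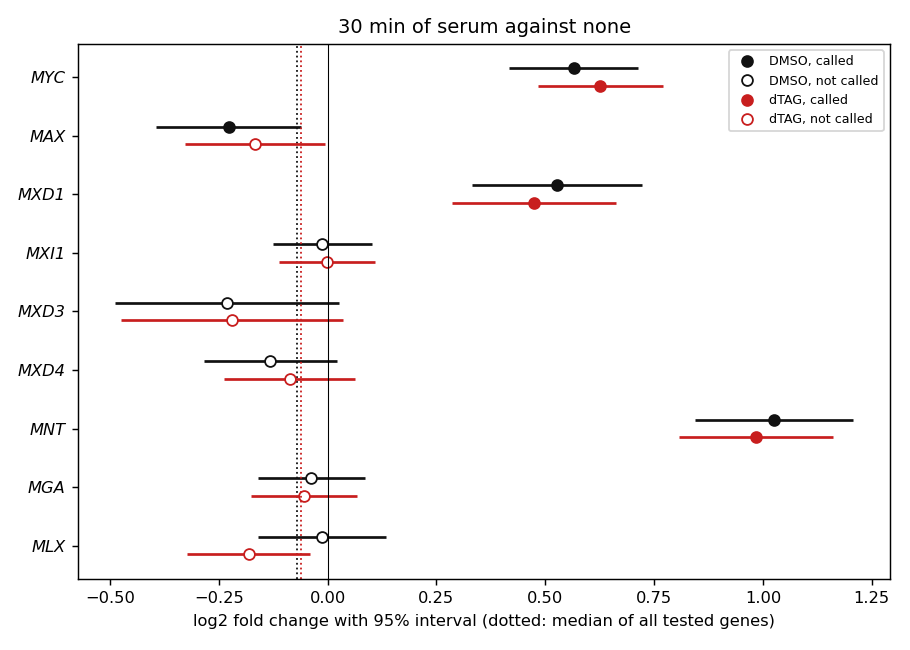
Log2 fold change with serum (horizontal axis) of the 9 members in DMSO-treated (black) and dTAG-treated cells (red); bars are 95% intervals, filled points are called and dotted lines mark the medians of all tested genes (-0.07 and -0.06). MNT, MYC and MXD1 lie to the right in both treatments, at 1.03 and 0.98, 0.57 and 0.63, and 0.53 and 0.47.

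Whether the serum response of the network differed with dTAG was tested by the interaction, the serum effect in dTAG-treated cells minus that in DMSO-treated cells. None of the 9 members was called, higher or lower (0 of 9 at an unadjusted p under 0.05 as well, and 0 with DESeq2), where 0.0382% of tested genes were called, 0% higher and 0.0382% lower. The difference for MYC was 0.06 on the log2 scale (95% interval -0.15 to 0.27), for MNT -0.04 (-0.30 to 0.22) and for MXD1 -0.05 (-0.33 to 0.22). MLX had the largest difference of the members, -0.17 (-0.38 to 0.04, unadjusted p = 0.112).

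Turning to KAP1 depletion itself, MGA was lower with dTAG both without and with serum, and the other 8 members were not called. MGA is the largest protein of the network and the scaffold of the Polycomb complex PRC1.6, which keeps germline and meiotic genes silent. Its level was 175, 167 and 175 CPM in DMSO-S0 and 137, 139 and 142 CPM in dTAG-S0. With serum it was 183, 163 and 159 CPM in DMSO-S30 and 130.5, 139 and 133 CPM in dTAG-S30. At either serum state each dTAG library was below each DMSO library. MGA fell to 0.807-fold at S0 (0.742 to 0.878, log2 -0.31 ± 0.0588, adjusted p = 0.00427) and to 0.798-fold at S30 (0.732 to 0.870, log2 -0.33 ± 0.0603, adjusted p = 0.00301).

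At S0, 1 of 9 members was therefore called, where 1.31% of tested genes were, 0.855% higher and 0.451% lower (65.5% of the calls were higher, and 80.3% with spike-in library sizes). Groups did not overlap for 2 of 9 members, MGA and MXD4, against 17.7% of tested genes. At S30 it was again 1 of 9, where 1.23% of tested genes were called, 0.596% higher and 0.634% lower, and groups did not overlap for MGA alone, against 15.7% of tested genes. The S0 and S30 comparisons share no library. The S0 call of MGA was lost with spike-in library sizes (log2 -0.28, adjusted p = 0.0974, in a range of 2.56e-05 to 0.0974 over 9 alternatives) and without DMSO-S0 replicate 3 (log2 -0.30, adjusted p = 0.0519). The S30 call held under all 9 alternatives (adjusted p up to 0.0330) and all 12 fits that left out 1 library (up to 0.0314).

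MGA spans 151858 bases, of which 13.2% is exonic, so most of what was counted over is intron. Of the 2742 tested genes with a span of at least 100 kb, 22 were called lower and 11 higher with dTAG at S0 and 12 lower and 13 higher at S30. The median log2 fold change of these long genes was -0.04 at S0 and 0.00 at S30. Of them, 5.25% had a lower value than MGA at S0 and 4.27% at S30. Among all tested genes, 4.20% had a lower value than MGA at S0 and 3.86% at S30. A part of gene length in the fall of MGA was not tested.

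For MYC the dTAG effect was -0.02 on the log2 scale at S0 (95% interval -0.16 to 0.13, adjusted p = 0.958) and 0.05 at S30 (-0.10 to 0.19, adjusted p = 0.886), so changes beyond 0.895-fold to 1.09-fold at S0 lay outside the interval. MNT had -0.02 and -0.06, MXD1 -0.04 and -0.09, MAX 0.02 and 0.08 and MXI1 -0.03 and -0.02, none of them called. MXD3 was at 13.7, 12.1 and 9.76 CPM in DMSO-S0 and 10.1, 9.09 and 9.83 CPM in dTAG-S0, with log2 values of -0.25 at S0 and -0.23 at S30 (adjusted p = 0.443 and 0.549). MXD4 at S0 (46.2, 41.0 and 45.0 CPM with dTAG) had -0.15 (adjusted p = 0.433). MLX at S0 was the member with the highest value, 0.16 (95% interval 0.02 to 0.30, unadjusted p = 0.0282, adjusted p = 0.349), and at S30 it was at -0.01.

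**Figure D3:**
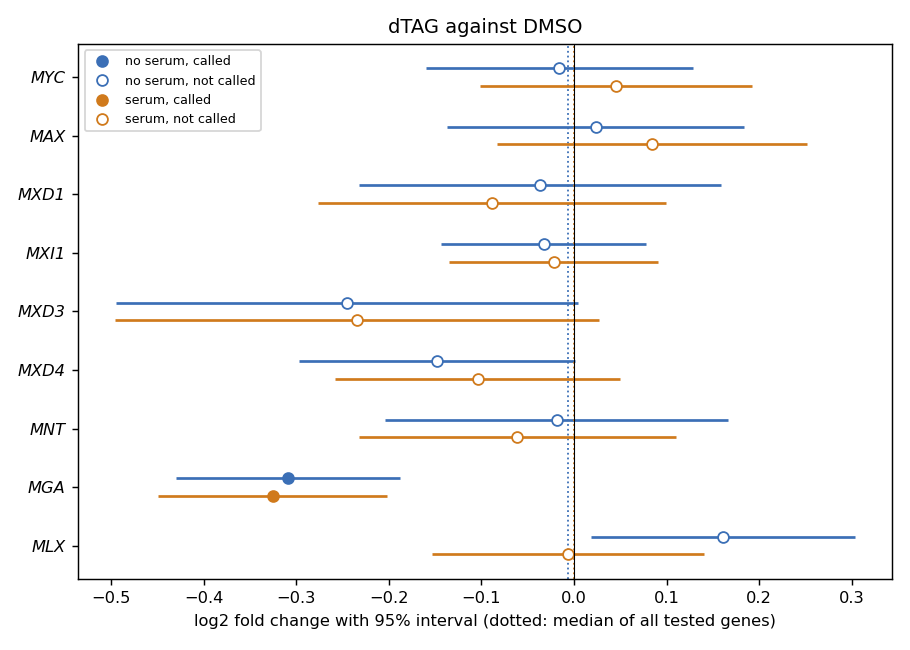
Log2 fold change with dTAG (horizontal axis) of the 9 members without serum (blue) and with serum (orange); bars are 95% intervals, filled points are called and dotted lines mark the medians of all tested genes (-0.01 and 0.00). MGA, at -0.31 and -0.33, is called in both.

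Since MYC and its antagonists share MAX, the reads of MYC were also set against those of each other member in the same library, a ratio that no scaling of the library can move. These are descriptions without a test, and the height of a ratio depends on gene length, so only its movement between groups is read. Per read of MAX there were 3.66 ± 0.213 reads of MYC in DMSO-S0 and 6.29 ± 0.173 in DMSO-S30 (SD, n = 3). In dTAG-treated cells the ratio went from 3.53 ± 0.223 to 6.17 ± 0.307. No library with serum overlapped one without.

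Against the repressors the ratios moved in different ways. MYC reads per MNT read went down, from 9.78 ± 0.481 to 7.06 ± 0.409 in DMSO-treated and from 9.77 ± 0.278 to 7.65 ± 0.679 in dTAG-treated cells. Per MXD1 read they stayed at a like height, 10.4 ± 0.159 and 10.6 ± 0.830 in DMSO-treated and 10.5 ± 1.31 and 11.8 ± 2.22 in dTAG-treated cells, and these groups overlapped. Per read of MXI1 they went up from 2.11 ± 0.0830 to 3.09 ± 0.154, of MXD4 from 4.36 ± 0.184 to 7.07 ± 0.341 and of MXD3 from 18.4 ± 3.13 to 33.1 ± 5.70 in DMSO-treated cells. MYC reads per MGA read went from 1.24 ± 0.0283 in DMSO-S0 to 1.87 ± 0.158 in DMSO-S30, and from 1.51 ± 0.121 in dTAG-S0 to 2.44 ± 0.188 in dTAG-S30.

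**Figure D4:**
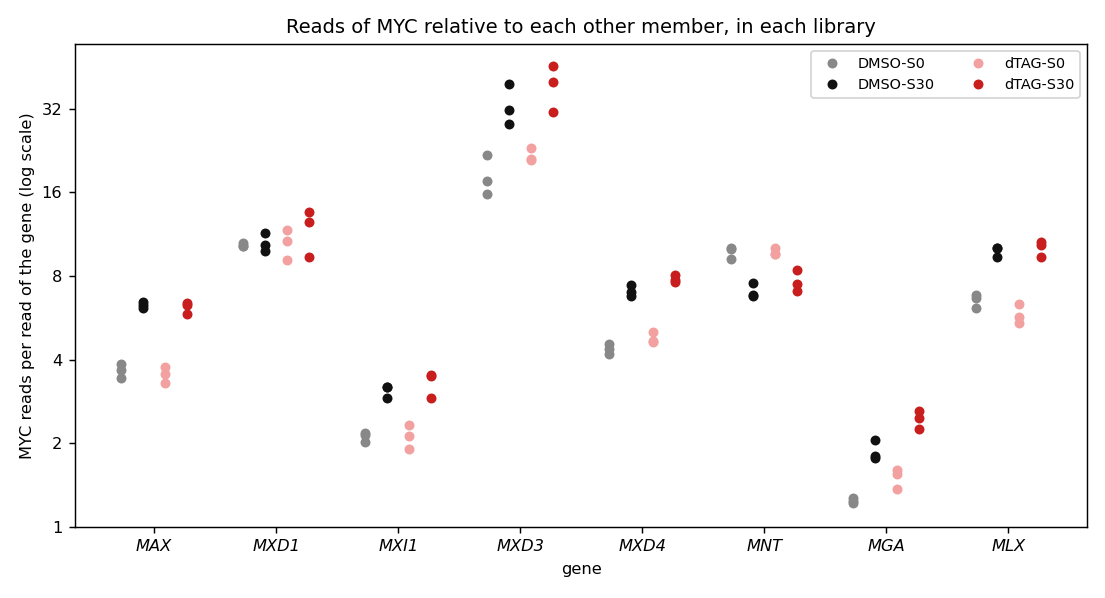
Reads of MYC per read of each other member in the same library (vertical axis, log scale); each point is a library, coloured by group. The ratio to MNT is lower with serum (9.78 to 7.06 in DMSO-treated cells), that to MXD1 is level and the others are higher.

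Among the 5 MXD and MNT repressors, the make-up of their summed CPM shifted towards MNT. MNT made up 10.7% ± 0.480 of the sum in DMSO-S0 and 19.4% ± 0.523 in DMSO-S30, and 11.0% ± 1.03 and 19.4% ± 1.25 in dTAG-treated cells. MXD1 went from 10.1% ± 0.212 to 13.0% ± 0.699 in DMSO-treated cells. The share of MXI1 went from 49.5% ± 1.65 to 44.2% ± 1.32 and that of MXD4 from 24.0% ± 1.07 to 19.3% ± 0.0732. MXI1 remained the largest of the 5 by reads in each group, while its own CPM hardly moved. Both the height of a share and the size of its movement depend on gene length, so only the direction of the movement is read. Per kb of span MXD4 stood above MXI1 in each group (3.31 against 1.27 CPM per kb in DMSO-S0). Exons cover 46.2% of the span of MXD4 and 7.41% of that of MXI1, so this order need not hold per kb of exon.

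The genes whose log2 CPM followed each serum-called member most closely over the 12 libraries were named by Pearson's r. These members were picked as called with serum, so r over all 12 is only a measure of likeness. The r within the 6 libraries of either serum state is given beside it. The genes were picked for the highest r over the same 12 libraries, so the r within a serum state is no separate check. For MYC they were ZFP36L2 (r = 0.990 over 12 libraries, 0.966 without and 0.847 with serum), FLNA (0.989, 0.868 and 0.896) and ZFP36L1 (0.987, 0.924 and 0.881). For MNT they were NR2F2 (0.996, 0.899 and 0.862), RUBCN (0.996, 0.957 and 0.791) and CNN2 (0.996, 0.874 and 0.956). MXD1 was followed by ROCK2 (0.973, 0.552 and 0.890), FAM110C (0.968, 0.845 and 0.796) and SEPTIN10 (0.968, 0.730 and 0.778). MAX was nearest to FXR2 (0.949, 0.784 and 0.946), SAE1 (0.942, 0.841 and 0.954) and ZNF592 (0.934, 0.914 and 0.940), none of which was called with serum in DMSO-treated cells.

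Around the 9 members, 104 genes of 8 lists were followed: other MYC and Mondo factors, coactivators, corepressors, turnover factors, targets of MYC in ribosome biogenesis and in metabolism and cell cycle, genes that MYC represses, and targets of MLX and MondoA. Of the other factors, MYCN was at 0 to 1 read per library and was not tested. MYCL, at 4.18 ± 1.06 CPM in DMSO-S0 (0.611 ± 0.155 CPM per kb of span), was not called (log2 0.12 with serum, adjusted p = 0.713). MLXIP, which encodes MondoA, was higher with serum in dTAG-treated cells (log2 0.27, adjusted p = 0.00238) and at 0.17 in DMSO-treated cells (adjusted p = 0.0535). MLXIPL, which encodes ChREBP, was not called. Over the 8 lists, 0 of 100 tested genes were called in the interaction, where 0.0382% of all tested genes were. At an unadjusted p under 0.05 there were 2, beside 414 of all 13093 genes. A call of a listed gene in only 1 treatment, here and below, was thus not called as a difference between the treatments.

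Of the 15 coactivators and partners of MYC, 2 were called higher and 1 lower with serum in DMSO-treated cells (median log2 -0.02), where 26.3% of all tested genes were called. PAF1, a subunit of the elongation complex PAF1C, went from 41.5 ± 2.12 to 63.3 ± 4.66 CPM (log2 0.63, adjusted p = 1.81e-06), and KAT5, the TIP60 acetyltransferase, had 0.29 (adjusted p = 0.00413), although RNASEH2C covers 73.6% of its span on the opposite strand. WDR5, which anchors MYC to chromatin, was lower (-0.19, adjusted p = 0.0277), a call lost with TMM scaling, spike-in library sizes and DESeq2. In dTAG-treated cells, where 24.5% of all tested genes were called, 2 were called higher, PAF1 (0.40, adjusted p = 0.000532) and HCFC1 (0.32, adjusted p = 0.00553), and 1 lower, WDR5 (-0.18, adjusted p = 0.0375), which was kept in only 2 of 9 alternatives.

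Among the 11 corepressors of the MXD, MNT and MGA proteins, 3 were called lower and 0 higher with serum in either treatment, where 17.1% and 15.4% of all tested genes were lower, with medians of -0.11 and -0.10 beside -0.07 and -0.06 for all tested genes. PCGF6, the Polycomb subunit that defines the MGA complex, fell most, from 55.0 ± 1.75 to 37.5 ± 2.42 CPM in DMSO-treated cells (log2 -0.55, adjusted p = 1.03e-06) and by 0.48 on the log2 scale in dTAG-treated cells (adjusted p = 7.30e-06). E2F6, which belongs to the same complex, had -0.25 and -0.27 (adjusted p = 0.0105 and 0.00625). NCOR1 was lower in DMSO-treated cells (-0.18, adjusted p = 0.0278) and SUDS3, a SIN3 subunit, in dTAG-treated cells (-0.21, adjusted p = 0.0103). The calls of PCGF6 held under all 9 alternatives in both treatments, and those of NCOR1 and SUDS3 were lost with TMM scaling, spike-in library sizes and DESeq2, as was that of E2F6 in DMSO-treated cells. The call of SUDS3 was also lost with no count filter, and that of E2F6 in dTAG-treated cells with spike-in library sizes alone. With dTAG 0 of the 11 were called at S0 or S30 by edgeR or DESeq2, and 1 had an unadjusted p under 0.05 in each.

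Among the factors of MYC protein turnover 1 gene stood out. USP36, a nucleolar deubiquitinase that stabilises MYC, went from 129 ± 7.39 to 271 ± 17.5 CPM in DMSO-treated cells (log2 1.10, adjusted p = 2.06e-13) and rose by 0.92 in dTAG-treated cells (adjusted p = 4.54e-12). It was the 1 gene of 15 called higher. In DMSO-treated cells 5 were called lower, against 17.1% of all tested genes, among them the kinase AURKA (-0.30, adjusted p = 0.00514), the ubiquitin ligase subunit SKP2 (-0.26, adjusted p = 0.00483) and CIP2A (-0.22, adjusted p = 0.0219), an inhibitor of the phosphatase PP2A. In dTAG-treated cells 4 were called lower, against 15.4% of all tested genes, among them SKP2 (-0.35, adjusted p = 0.000169), USP28 (-0.30, adjusted p = 0.00116) and CIP2A (-0.23, adjusted p = 0.0165). The calls of AURKA and SKP2 in DMSO-treated cells were lost only with spike-in library sizes, and those of the other 3 (BTRC, USP28 and CIP2A) also with TMM scaling and DESeq2. In dTAG-treated cells the call of SKP2 held under all 9 alternatives. There the call of USP28 was lost with spike-in library sizes, and that of CIP2A with these, TMM scaling and DESeq2. The median of the list was -0.02 and -0.09 in the 2 treatments.

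Of the targets of MYC in ribosome biogenesis, 3 of 29 tested were higher and 2 lower in DMSO-treated cells, with a median of 0.08, where 9.18% of all tested genes were higher and 17.1% lower. In dTAG-treated cells 3 were higher and 4 lower, with a median of 0.00, beside 9.09% and 15.4% of all tested genes. RRP12, a factor of ribosomal subunit export, went from 75.6 ± 1.12 to 124 ± 2.67 CPM (log2 0.72, adjusted p = 3.22e-10) and rose by 0.65 in dTAG-treated cells (adjusted p = 1.50e-09). NOLC1, a nucleolar phosphoprotein, had 0.25 in DMSO-treated cells (adjusted p = 0.00538), and POLR1B, a subunit of RNA polymerase I, -0.25 in both treatments (adjusted p = 0.0100, lost with TMM scaling, spike-in library sizes and DESeq2, and 0.00850, lost with spike-in library sizes). WDR74 was lower with serum (-0.53, adjusted p = 0.00293, and -0.35, adjusted p = 0.0406) and also with dTAG at S0 (-0.50, adjusted p = 0.0347), but its libraries varied widely, from 398 to 593 CPM in DMSO-S0 and from 263 to 412 in DMSO-S30, groups that overlapped. Its serum call in dTAG-treated cells was kept in 5 of 9 alternatives, and its dTAG call at S0 in 8 of 9. WDR74 was not typical of the list with dTAG at S0, where 27 of 29 had a log2 value above 0. The median there was 0.08, beside -0.01 for all tested genes, and WDR74 was the 1 gene called. At S30 19 of 29 were above 0, with a median of 0.04 beside 0.00, and 0 were called. IMP4 was lower with serum in dTAG-treated cells (-0.21, adjusted p = 0.0269), a call kept in 2 of 9 alternatives.

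Of 20 tested targets in metabolism and cell cycle, 2 were higher and 1 lower with serum in DMSO-treated cells (median 0.06) and 1 higher and 4 lower in dTAG-treated cells (median 0.02), where 26.3% and 24.5% of all tested genes were called in either direction. The translation factor genes went in opposite directions, EIF4A1 up (0.26 and 0.23, adjusted p = 0.00510 and 0.00932) and EIF4E down (-0.19 and -0.24, adjusted p = 0.0249 and 0.00438). SENP3-EIF4A1 covers 95.4% of the span of EIF4A1 on the same strand, so its reads are uncertain, and the EIF4E call in DMSO-treated cells was lost with TMM scaling, spike-in library sizes, DESeq2 and no count filter. In dTAG-treated cells the EIF4E call was lost with spike-in library sizes. The chaperonin HSPD1 was higher in DMSO-treated cells (0.20, adjusted p = 0.0193). CDC25A, a cell cycle phosphatase, and PPAT, the first enzyme of purine synthesis, were lower in dTAG-treated cells (-0.22 and -0.20, adjusted p = 0.0231 and 0.0179), calls that were lost with TMM scaling, spike-in library sizes and DESeq2. The call of CDC25A was kept in only 3 of 9 alternatives and that of PPAT in 6 of 9. HK2, a hexokinase, was higher with dTAG at S0 (60.4 ± 4.58 and 73.3 ± 4.56 CPM, log2 0.27, adjusted p = 0.0318). It lost that call with spike-in library sizes, and with only the libraries of the groups compared. Of the 20 targets, 16 had a log2 value above 0 with dTAG at S0 (median 0.04) and 11 at S30 (median 0.01). The medians of all tested genes were -0.01 and 0.00.

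Genes that MYC is known to repress included 3 of 6 called higher with serum and 0 lower, in either treatment, where 9.18% and 9.09% of all tested genes were higher, with medians of 0.42 and 0.38. GADD45A, a growth arrest and stress gene, went from 29.0 ± 2.26 to 90.9 ± 6.46 CPM in DMSO-treated cells (log2 1.69, adjusted p = 1.19e-15) and rose by 1.64 in dTAG-treated cells (adjusted p = 1.44e-15). NDRG1 had 0.53 and 0.45 (adjusted p = 1.58e-06 and 1.27e-05), and CDKN1A, which encodes the cell cycle inhibitor p21, had 0.49 and 0.54 (adjusted p = 1.23e-06 and 1.59e-07). These 3 calls held under all 9 alternatives in both treatments. They rose at the same time as MYC itself.

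For the MLX and MondoA pair only ARRDC4, an arrestin-like gene, could be tested, since TXNIP had 0 reads in all 12 libraries. ARRDC4 was at 5.93 ± 1.26 and 5.51 ± 0.687 CPM in DMSO-S0 and DMSO-S30 and at 7.05 ± 0.349 and 4.30 ± 0.241 CPM in dTAG-S0 and dTAG-S30. It was called lower with serum in dTAG-treated cells (log2 -0.68, adjusted p = 0.00129) and not in DMSO-treated cells (-0.16, adjusted p = 0.471), and the difference of the serum effects was not called (interaction -0.52, adjusted p = 1). With dTAG, 2 of the genes of the 8 lists were called at S0, WDR74 and HK2, where 18 of 100 tested had an unadjusted p under 0.05, beside 1528 of all 13093 genes. At S30 edgeR's quasi-likelihood test called 0 (12 at an unadjusted p under 0.05, beside 1358 of all 13093 genes), the likelihood ratio test 1 and DESeq2 2.

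**Figure D5:**
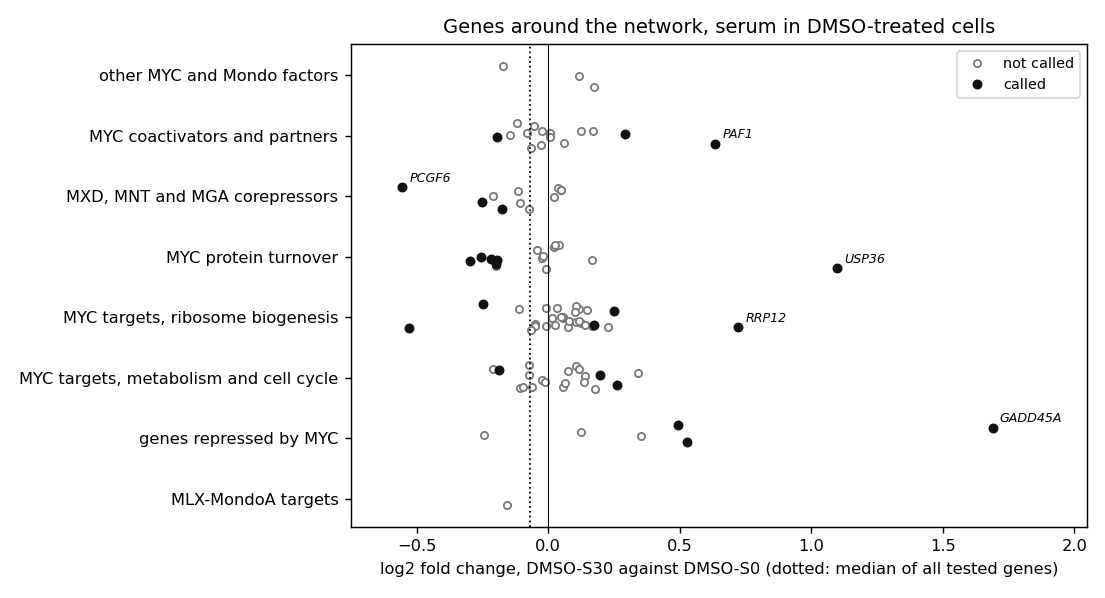
Log2 fold change with serum in DMSO-treated cells (horizontal axis) of every tested gene of the 8 lists (rows, spread at random within a row); filled points are called and the dotted line marks the median of all tested genes (-0.07). GADD45A (1.69), USP36 (1.10), RRP12 (0.72), PAF1 (0.63) and PCGF6 (-0.55) lie farthest out, and most genes lie near 0.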

How the data were processed

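Per the labels and the study's methods, RNA was depleted of ribosomal RNA, ERCC spike-ins were added, reads were trimmed with Trim Galore 0.6.4 and mapped to hg38 with STAR, and featureCounts (Subread 1.6.3) counted them per whole gene, for genes that code for proteins. What the authors deposited are raw counts for each gene and ERCC transcript, not normalized, with each gene's length in the same table. The strand setting is not given in the sources used here. In the counts, NIP7 and NOP16, covered whole by genes of the opposite strand, had 825 to 1728 reads, while PPAN and NOP2, covered by genes of the same strand, had 0 to 21. Other genes with same-strand cover had many reads, EIF4A1 (95.4% covered) 886 to 1550 and GSK3A (64.65%) 802 to 1065. Whether genes with a same-strand neighbour (MXD1, and MXD3 with RAB24 over 20.2% of its span) lost reads was not tested, but they may have.

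A gene was tested where 6 or more of the 12 libraries had 10 or more counts. Counts were scaled by the upper quartile, 1 RUVg factor was estimated from 69 ERCC transcripts, and all 4 groups were fitted together in edgeR 4.0.16 (R 4.3.3) with the two-sided quasi-likelihood F-test, Benjamini-Hochberg adjustment over all genes, after a test on simulated data. Starts, counted from 0 in the table, are given from 1. Replicates of a group differed by more than counting noise (chi-square per degree of freedom 3.02 to 9.80).

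The members and gene lists were chosen with earlier results of these data known. All members were named, as were FOS and EGR1 for serum and TRIM28 as the targeted gene, up to 4 called genes per list and comparison by size of change, and for each member called with serum in DMSO-treated cells the 3 genes with the highest Pearson's r. Precision covers counting error and the spread between libraries, not amplification. Alternatives were TMM, spike-in library sizes, no RUVg factor, 2 factors, DESeq2 1.42.0, the likelihood ratio test, no count filter, fits of the compared groups alone, a replicate block, and leaving out each library.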

Additional observations from a re-analysis of the deposited data

How the results depend on the processing

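MYC, MNT and MXD1 were called higher with serum in both treatments, and MGA lower with dTAG at S30, under 9 of 9 alternatives and in 12 of 12 fits without 1 library. Over members and comparisons, the alternatives other than leaving out a library kept direction and side of the threshold 359 times, turned a direction 32 times, lost a call 4 times and gained 1, and the fits without 1 library did so 489, 44, 6 and 1 times. The lost calls are those of MAX and MGA given above, and the gained ones, both with serum in dTAG-treated cells, are MLX with the likelihood ratio test (log2 -0.18, adjusted p = 0.0468) and MAX without dTAG-S30 replicate 2. The turned directions were of values near 0, as log2 fold changes. With serum in DMSO-treated cells MXI1 had 0.072 with TMM, 0.063 with spike-in library sizes, 0.065 with DESeq2 and 0.015 without the count filter, MGA 0.040, 0.028, 0.033 and 0.0034, and MLX 0.034, 0.026 and 0.027 in the first 3. In dTAG-treated cells MXI1 had 0.053, 0.028 and 0.044 with those 3, and MGA 0.0045 with TMM. For dTAG at S0, spike-in library sizes gave 0 members called, MYC 0.0031, MXI1 0.0044 and MNT 0.0042, and 2 factors gave MAX -0.0020 and MXD1 0.014. At S30 MLX had 0.014 with TMM, 0.018 with spike-in library sizes, 0.018 without the factor, 0.012 with DESeq2, 0.0081 without the count filter and 0.0082 with the compared groups alone. In the interaction MXI1 had -0.020, -0.034, -0.0083, -0.021 and -0.024 in the first 5 of these, and MXD3 -0.011 with 2 factors. The cause was not tested.

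Genes called over the 8 lists numbered 12 with serum in dTAG-treated cells under spike-in library sizes (28 in the fit reported), 1 under spike-in library sizes or with the compared groups alone and 4 with DESeq2 for dTAG at S0 (2 reported), and for dTAG at S30 (0 reported) 1 with TMM, without the factor, with 2 factors or by the likelihood ratio test, 2 with DESeq2 and 4 without the count filter.

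Without 1 library the log2 fold change with serum in DMSO-treated cells ranged from -0.27 to -0.14 for MAX, -0.043 to 0.026 for MXI1, -0.093 to 0.0042 for MGA and -0.045 to 0.023 for MLX, and in dTAG-treated cells from -0.24 to -0.062 for MAX and -0.022 to 0.0052 for MXI1, with 18 to 28 list genes called. For dTAG at S0 it called 0 to 1 member and 0 to 7 list genes and ranged from -0.075 to 0.054 for MYC, -0.024 to 0.089 for MAX, -0.082 to 0.031 for MXD1, -0.057 to 0.0016 for MXI1 and -0.098 to 0.073 for MNT. At S30 it called 0 to 2 list genes and ranged from -0.025 to 0.14 for MYC, -0.0041 to 0.19 for MAX, -0.11 to 0.0036 for MNT and -0.038 to 0.013 for MLX. The interaction ranged from -0.015 to 0.17 for MYC, -0.034 to 0.18 for MAX, -0.19 to 0.037 for MXD1, -0.13 to 0.14 for MXD3, -0.014 to 0.14 for MXD4, -0.032 to 0.041 for MXI1, -0.14 to 0.042 for MNT and -0.060 to 0.028 for MGA.

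Over all tested genes, 3439 were called with serum in DMSO-treated cells, 3203 with serum in dTAG-treated cells, 171 with dTAG at S0, 161 at S30 and 5 in the interaction, against 1766, 1646, 76, 66 and 3 with spike-in library sizes. For dTAG at S0, at S30 and the interaction DESeq2 called 257, 298 and 22, the likelihood ratio test 287, 266 and 10, and the fit without a count filter 275, 406 and 29, while 2 factors gave 9 in the interaction. Without 1 library the 5 counts ranged over 2473 to 3719, 2137 to 3974, 67 to 272, 95 to 257 and 4 to 8.

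Replicate numbers did not pair the libraries: over 18 pairs with the same number the deviations correlated at -0.15 to 0.14 (median 0.03), 1 pair was over 0.1, and 5 of 12 libraries correlated best with their own number. With the replicate number as a block, MYC had 0.56 with serum in DMSO-treated cells (adjusted p = 1.86e-06), 0.63 in dTAG-treated cells (adjusted p = 2.36e-07), -0.02 and 0.05 with dTAG at S0 and S30 and 0.07 in the interaction, and 4, 3, 1, 1 and 0 members and 25, 28, 3, 0 and 0 list genes were called. The block changed no call of a member.

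With 3 libraries a group, MXD3 at 167 to 264 reads had the widest intervals of the members, and small differences in it would not be detected.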
